A study of Mus musculus with 27 samples.

Results

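The genes described here are 8 components and regulators of the complement system, C1qa, C1qb, C1qc, C4b, C4a, C3, Cfb and Serping1. They were taken by symbol from the gene table of an RNA-seq experiment on sorted mouse brain nuclei, which holds 39338 genes and added sequences. All 8 were found, and all 8 passed the filter on low counts together with 21768 genes in all. The experiment used C9-BACexp mice, which carry a human C9ORF72 gene with an expanded repeat on a bacterial artificial chromosome (strain C57BL/6J-Tg(C9ORF72_i3)112Lutzy/J), and C57BL/6J littermates without it. Mice 6 weeks old were injected in the motor cortex with a PHP.eB AAV vector for the high-fidelity, CAG-driven RNA-targeting nuclease RfxCas13d-N2V8 and either crRNA-13, which targets a C9ORF72 exon beside the repeat, or a non-targeted crRNA (NTG). All of them also received PHP.eB-EGFP-KASH, a vector for a green fluorescent protein that marks the nuclear envelope. Another group of each genotype received EGFP-KASH only, without nuclease, and its age, dose and time after injection are not given in the sources used here. EGFP-KASH+ nuclei were sorted, in the mice with nuclease 2 months after injection, and each of the 27 libraries came from 1 mouse. The labels name the effector of the NTG mice as RfxCas13d, where the paper's text gives RfxCas13d-N2V8. Among the C9-BACexp mice, 3 had EGFP-KASH only, 6 NTG and 6 crRNA-13. Among the C57BL/6J mice, 4 had EGFP-KASH only, 5 NTG and 3 crRNA-13.

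Complement is a cascade of proteins that marks and clears microbes, debris and, in the brain, synapses. C1q, built from the products of C1qa, C1qb and C1qc, recognises the target and starts the classical pathway, and in the brain it comes mainly from microglia. C4, the product of C4b, and C3 are cleaved in turn and attach to the target, factor B (Cfb) forms the convertase of the alternative pathway, and the C1 inhibitor (Serping1) holds back the proteases of C1. Astrocytes, neurons and oligodendrocytes can express C4b, and its transcription and that of several other complement genes is known to respond to interferons.

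In the GENCODE annotation of the GRCm39 build all 8 genes lie on the minus strand. C4b (chr17:34947354-34962912), C4a (chr17:35028069-35042440) and Cfb (chr17:35074852-35081559) lie close together in the class III region of the major histocompatibility complex, and C3 (chr17:57510964-57535155) lies elsewhere on that chromosome. C1qb (chr4:136606009-136613511), C1qc (chr4:136616466-136620376) and C1qa (chr4:136623223-136626161) form a cluster, and Serping1 is at chr2:84595705-84620873. The gene table describes C4a as a non-coding variant, while GENCODE annotates it as protein-coding. C4b and C4a are copies of one another. In an alignment of 1 spliced transcript of each, C4b-201 of 5435 bases and C4a-206 of 5369 bases, 96.2% of the 5369 aligned bases were identical, and 16.3% of all stretches of 100 bases in the C4b transcript, the length of a read, recurred without a difference in the C4a transcript. Reads from those stretches could have been shared out between both genes. The 2 stretches below, both from exon 11, are shown because they are a place where reads of the copies can be told apart. They were picked as the pair with most differences among aligned coding stretches of 100 bases, without a gap and inside 1 exon. Capitals mark the 15 positions at which they differ, and both are written 5′ to 3′ on the minus strand, from chr17:34959318-34959417 and chr17:35038839-35038938 of GRCm39.
C4b: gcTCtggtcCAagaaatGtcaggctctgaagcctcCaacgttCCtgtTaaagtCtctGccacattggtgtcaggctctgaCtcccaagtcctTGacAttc
C4a: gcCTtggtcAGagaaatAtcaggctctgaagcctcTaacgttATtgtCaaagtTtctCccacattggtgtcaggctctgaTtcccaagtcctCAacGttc

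Levels are given as CPM, counts scaled to a common library size after TMM normalization. The totals were 21508829 to 36777972 counts per library, so that 3 counts, taken here as the floor for counting error, came to 0.0801 to 0.144 CPM. In these bulk samples fewer cells of a type and less RNA per cell cannot be told apart. The human C9ORF72 transcripts summed to 64.0 to 103 CPM in the C9-BACexp libraries. Of the 12 C57BL/6J libraries 1 held any, at 0.436 CPM, replicate 5 of the crRNA-13 mice. EGFP-KASH was at 9.42 to 110 CPM. The labels call the cells primary neurons, and 8 neuron markers summed to 4033 to 5542 CPM, but markers of astrocytes (566 to 1137 CPM), oligodendrocytes (393 to 5025 CPM) and microglia (42.1 to 148 CPM) were also present in every library.

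C4b varied widely between mice. Its CPM spanned a 66.0-fold range over the 27 libraries, from 6.36 to 420, on 162 to 11460 counts per library. In the C57BL/6J mice it was at 10.9, 13.3, 27.03 and 44.8 CPM with EGFP-KASH only, and at 6.36, 14.4, 58.4, 59.7 and 76.8 CPM with NTG. With crRNA-13 the values were 66.2, 278 and 351 CPM. The crRNA-13 mice all lay above the mice with EGFP-KASH only, and 2 of 3 lay above every NTG mouse.

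In the C9-BACexp mice C4b was at 36.1, 49.1 and 72.02 CPM with EGFP-KASH only and at 32.5, 36.0, 41.4, 60.9, 63.3 and 112 CPM with NTG. With crRNA-13 it was at 33.3, 66.2, 124, 129, 167 and 420 CPM. Of these 6 mice, 4 lay above all C9-BACexp controls and those at 33.3 and 66.2 CPM lay among them, so the groups overlapped. By mean, the order of the 6 groups was C57BL/6J with crRNA-13 (232 ± 148 CPM, SD, n = 3), C9-BACexp with crRNA-13 (156 ± 138, n = 6), C9-BACexp with NTG (57.7 ± 29.7, n = 6), C9-BACexp with EGFP-KASH only (52.4 ± 18.2, n = 3), C57BL/6J with NTG (43.1 ± 30.9, n = 5) and C57BL/6J with EGFP-KASH only (24.0 ± 15.6, n = 4). Each group overlapped the next in that order, and none of the 4 neighbouring pairs that were tested passed.

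**Figure D1:**
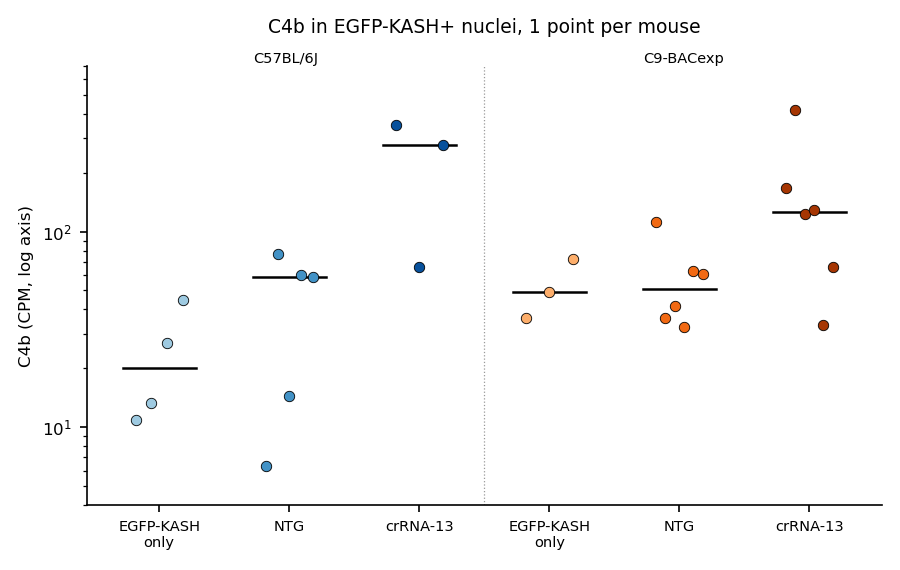
C4b in CPM on a log axis, 1 point per mouse and a line at each group's median, by genotype and treatment. The 3 C57BL/6J mice with crRNA-13 sit at 66.2 to 351 CPM, above the 4 with EGFP-KASH only at 10.9 to 44.8 CPM, and the C9-BACexp mice with crRNA-13 reach from 33.3 to 420 CPM.

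The first comparison was of crRNA-13 with its 2 controls in C57BL/6J mice, which lack the human C9ORF72 gene. Against EGFP-KASH only, C4b rose 10.6-fold (log2 fold change 3.41, SE 0.53, adjusted p = 0.0102, edgeR quasi-likelihood F test). Passing took a change of more than 1.2-fold at an adjusted p below 0.05, except for crRNA-13 against NTG in this genotype, which had stricter limits. Under these limits it was the only passing result of the 8 genes in the 10 comparisons. Of all genes tested, 0.404% were called in this comparison, and C4b had p-value rank 5. The rise passed without each of the 7 libraries in turn, at a log2 fold change of 2.84 to 3.95 and an adjusted p of 0.000845 to 0.0425. It did not pass in edgeR without the 4 factors of unwanted variation (3.27, adjusted p = 0.234) or with 2 of them (3.46, adjusted p = 0.151). DESeq2 called it with the factors (3.404, adjusted p = 1.22e-07) and without them (3.28, adjusted p = 0.00704), and limma-trend with them (3.16, adjusted p = 0.00815). In an exact two-sided permutation test of log2 CPM without factors, the smallest p-value that 3 against 4 mice can give, 0.0286, was reached, which became 0.256 when adjusted over 9 comparisons.

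Against NTG, C4b was 6.46-fold higher with crRNA-13 in C57BL/6J mice (log2 fold change 2.69, SE 0.48, adjusted p = 0.0298). For this comparison the stricter limits of the study were used, with an adjusted p under 0.01, and C4b did not pass them. In this edgeR fit no gene did (0% of all genes tested), although 2413 genes had an unadjusted p under 0.05. DESeq2 called 177 genes with the same factors, C4b among them, and 2 without, and limma-trend called 0. The paper, in its own fit, does report genes that differ at these limits in this comparison, most of them up-regulated. The counts given here are therefore those of the fits used here. C4b would have passed the limits used for the other comparisons. It passed the strict ones without crRNA-13 replicate 2, the lowest of the 3 mice (3.25, adjusted p = 0.00172), and lay at 2.14 without NTG replicate 1, the lowest of the controls. The exact permutation p-value was 0.0893. NTG did not differ from EGFP-KASH only beyond the test's limits (log2 fold change 0.71, SE 0.46, adjusted p = 0.747), in a comparison in which 0% of genes were called by edgeR, 1713 had an unadjusted p under 0.05, limma-trend called 0 and DESeq2 called 55 with the factors and 21 without. These comparisons share the crRNA-13, NTG or EGFP-KASH mice, so they are not independent of one another.

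In C9-BACexp mice, which carry the repeat, C4b was 2.53-fold higher with crRNA-13 than with NTG (log2 fold change 1.34, SE 0.39, adjusted p = 0.0744) and 2.60-fold higher than with EGFP-KASH only (1.38, SE 0.50, adjusted p = 0.161). Neither difference passed, where 0.478% and 0.923% of all genes were called. The value against NTG lay close to the limit. It passed with DESeq2 and the same factors (adjusted p = 0.0182) and without crRNA-13 replicate 3 or 6 (adjusted p = 0.0495 and 0.0228), and it was 0.93 without replicate 2, the mouse with the highest C4b (adjusted p = 0.316). The exact permutation p-value was 0.0649. The difference between NTG and EGFP-KASH only did not pass (0.04, SE 0.47, adjusted p = 0.989), where 0.0322% of genes were called.

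The genotypes were compared within each treatment. C4b was higher in C9-BACexp than in C57BL/6J mice with EGFP-KASH only (1.34, SE 0.51, adjusted p = 0.187) and with NTG (0.67, SE 0.41, adjusted p = 0.456), and lower with crRNA-13 (-0.69, SE 0.46, adjusted p = 0.499). None of these passed, where 2.86%, 6.6% and 1.09% of all genes were called. The difference between the effects of crRNA-13 in the 2 genotypes, against NTG, was -1.35 (SE 0.61, adjusted p = 0.446), and 0.00459% of genes, 1 gene, passed that test. A difference between the genotypes in the C4b response to crRNA-13 was thus not shown. Oligodendrocyte markers differed between the genotypes: 10 of 12 were called higher in C9-BACexp mice with NTG, 5 with EGFP-KASH only and 1 with crRNA-13. By fitted value 12, 12 and 11 of the 12 were higher. Of 12 astrocyte markers 4 were called lower with NTG, 0 with EGFP-KASH only and 3 with crRNA-13. Their fitted values were lower for 12, 11 and 11 of the 12. The part of these cell types in the C4b level was not tested.

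C4a, the copy of C4b, had no passing difference. It was at 1.06 to 9.30 CPM, on 31.7 to 270.0 counts per library (group means 4.66 to 6.38 CPM). In the C57BL/6J mice with crRNA-13 it was at 6.20, 6.28 and 6.67 CPM, inside the range of the NTG mice (2.86 to 9.30). Its log2 fold changes over the 10 comparisons lay between -0.27 and 0.49 with SEs of 0.19 to 0.31, and none had an unadjusted p under 0.05. The lowest C4a value of all, 1.06 CPM, was in C9-BACexp crRNA-13 replicate 1, where C4b was at 167 CPM. With the counts of both genes summed, the C57BL/6J rise of C4b over EGFP-KASH only was 3.10 (adjusted p = 0.0102), and no C4b call changed.

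The coding genes around C4b were described as well, from 50 kb before C4b to 50 kb beyond Cfb (chr17:34897354-35131559). That window holds 13 protein-coding genes in GENCODE, 3 of them C4b, C4a and Cfb, and 7 of the others were tested. In C57BL/6J mice with crRNA-13, C2 had the highest log2 fold change of the 7, 2.01 against NTG and 3.79 against EGFP-KASH only, and the other 6 lay between -0.21 and 0.26 and between -0.15 and 0.18. None of the 7 was called in either comparison. Nelfe, which overlaps Cfb on the opposite strand by 3865 bases, was at -0.02 in both. Cfb also overlaps the annotated gene Gm20547 on its own strand by 6172 bases, and how the counts were assigned there is not given in the sources used here. The window was chosen after the values of C4b were known.

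The 3 C1q genes were measured at low and similar counts. C1qa was at 0.232 to 1.85 CPM, C1qb at 0.128 to 1.91 CPM and C1qc at 0.180 to 2.18 CPM over the 27 libraries, on 2.83 to 79.7 counts. The highest value of each came from the same mouse, C57BL/6J crRNA-13 replicate 5. The other 2 mice of that group were at 0.420 and 0.788 CPM for C1qa, 0.606 and 1.32 CPM for C1qb and 0.559 and 0.946 CPM for C1qc, inside the range of the NTG mice (0.310 to 1.57, 0.275 to 1.87 and 0.344 to 1.12 CPM). None of the 3 genes was called in any comparison. The difference with the smallest p-value was that of C1qc between the genotypes with crRNA-13 (0.609 ± 0.319 CPM in C9-BACexp, SD, n = 6, and 1.23 ± 0.846 in C57BL/6J, n = 3), at a log2 fold change of -1.04 (SE 0.44, adjusted p = 0.239), and it was -0.41 without that mouse.

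C1qc was also the 1 gene of the 8 whose values did not overlap between the genotypes with EGFP-KASH only, at 0.791, 0.959 and 1.18 CPM in C9-BACexp and 0.4657, 0.678, 0.742 and 0.766 CPM in C57BL/6J mice. Of all genes tested, 3.3% were higher in C9-BACexp mice without overlap in that comparison, and the fitted difference of C1qc did not pass (adjusted p = 0.651). The 17 microglia markers, among them Cx3cr1, P2ry12 and Tmem119, summed to 77.2, 87.8 and 108.6 CPM in the C57BL/6J mice with crRNA-13 and to 42.1 to 148 CPM with NTG. None of the 17 was called in the comparisons of crRNA-13 with its controls in either genotype. In C57BL/6J mice with crRNA-13, 16 of 17 had a higher fitted value than with NTG (median log2 fold change 0.67, 3 at an unadjusted p under 0.05) and 13 of 17 than with EGFP-KASH only (median 0.58, 3 at that p). The 12 oligodendrocyte markers were all higher in both (medians 0.56 and 0.36, 6 and 4 at that p), and none was called. Over all genes, 11.1% had such a p against NTG and 11.2% against EGFP-KASH only, and 0% and 0.404% were called. The mouse with the highest C1q ranked 3 of 27 in the sum of the microglia markers. The part of microglia and oligodendrocytes in the levels of the complement genes was not tested.

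C3, the central component of the cascade, was near the floor in most mice. It was under 3 counts in 8 of the 27 libraries and at 0 in 4. In the C57BL/6J mice it was at 0.0423, 0.239, 0.244 and 0.258 CPM with EGFP-KASH only, at 0, 0.103, 0.136, 0.225 and 0.272 CPM with NTG, and at 0.662, 0.899 and 1.03 CPM with crRNA-13. All 3 crRNA-13 mice, on 20.7 to 32.9 counts, lay above every control of that genotype. C3 reached the level the filter asks for in 5 libraries, 4 of them from crRNA-13 mice, and would not have been tested without these. In C9-BACexp mice with crRNA-13 the lowest value was 0, the median 0.192 and the highest 1.54 CPM, and in the controls C3 was at 0 to 0.511 CPM, so these groups overlapped. Neither contrast of C3 passed. The log2 fold change in C57BL/6J mice was 2.74 against NTG (SE 1.05, adjusted p = 0.298) and 2.19 against EGFP-KASH only (SE 1.09, adjusted p = 0.468).

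Cfb, which encodes factor B, had fewer counts still, under 3 in 19 of 27 libraries and 0 in 10. The filter asked for 0.345 CPM before TMM scaling in at least 3 libraries, which Cfb reached in 3, all from crRNA-13 mice, and in 0 of the 18 controls. It was tested only because it was high there, so its differences with crRNA-13 are a description. In the C57BL/6J mice with crRNA-13 it was at 0.315, 0.653 and 1.58 CPM, on 9.98, 13.7 and 58.2 counts. With NTG it was at 0, 0, 0.0344, 0.0392 and 0.113 CPM and with EGFP-KASH only at 0, 0, 0.0813 and 0.194 CPM. The C57BL/6J crRNA-13 mice lay above every control of that genotype. The fitted log2 fold changes were 4.19 against NTG (SE 1.24, adjusted p = 0.143) and 4.05 against EGFP-KASH only (SE 1.32, adjusted p = 0.228). Neither passed, and as most control mice were under the floor their size depends on how low counts are moderated. In C9-BACexp mice with crRNA-13 Cfb was at 0 to 0.440 CPM and overlapped its controls. With crRNA-13 it was lower in C9-BACexp than in C57BL/6J mice (-2.70, SE 1.09, adjusted p = 0.215), which passed with limma-trend alone (-2.02, adjusted p = 0.0379), and the difference between the effects of crRNA-13 in the genotypes was -3.53 (SE 1.61, adjusted p = 0.449).

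Serping1, the C1 inhibitor gene, was under 3 counts in 9 libraries and at 0 in 4. Its 2 highest values were in C57BL/6J mice with crRNA-13, 1.73 and 4.41 CPM on 54.7 and 162 counts, while the other mouse of that group was at 0.0932 CPM on 1.72 counts. The controls of that genotype were at 0, 0, 0.0958 and 0.434 CPM with EGFP-KASH only and at 0.0339, 0.0344, 0.451, 0.681 and 0.902 CPM with NTG. The groups overlapped, and the log2 fold change against EGFP-KASH only was 3.91 (SE 1.33, adjusted p = 0.244). It was 2.89 without the mouse with the highest value, replicate 5. Against NTG it was 1.94 (SE 1.15), which did not pass, and 0.99 without that mouse. In C9-BACexp mice Serping1 was between 0 and 0.806 CPM in the 3 groups, and with crRNA-13 it lay below the C57BL/6J mice by a log2 fold change of -2.34 (SE 1.09, adjusted p = 0.296), which was -1.47 without that mouse (adjusted p = 0.64).

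**Figure D2:**
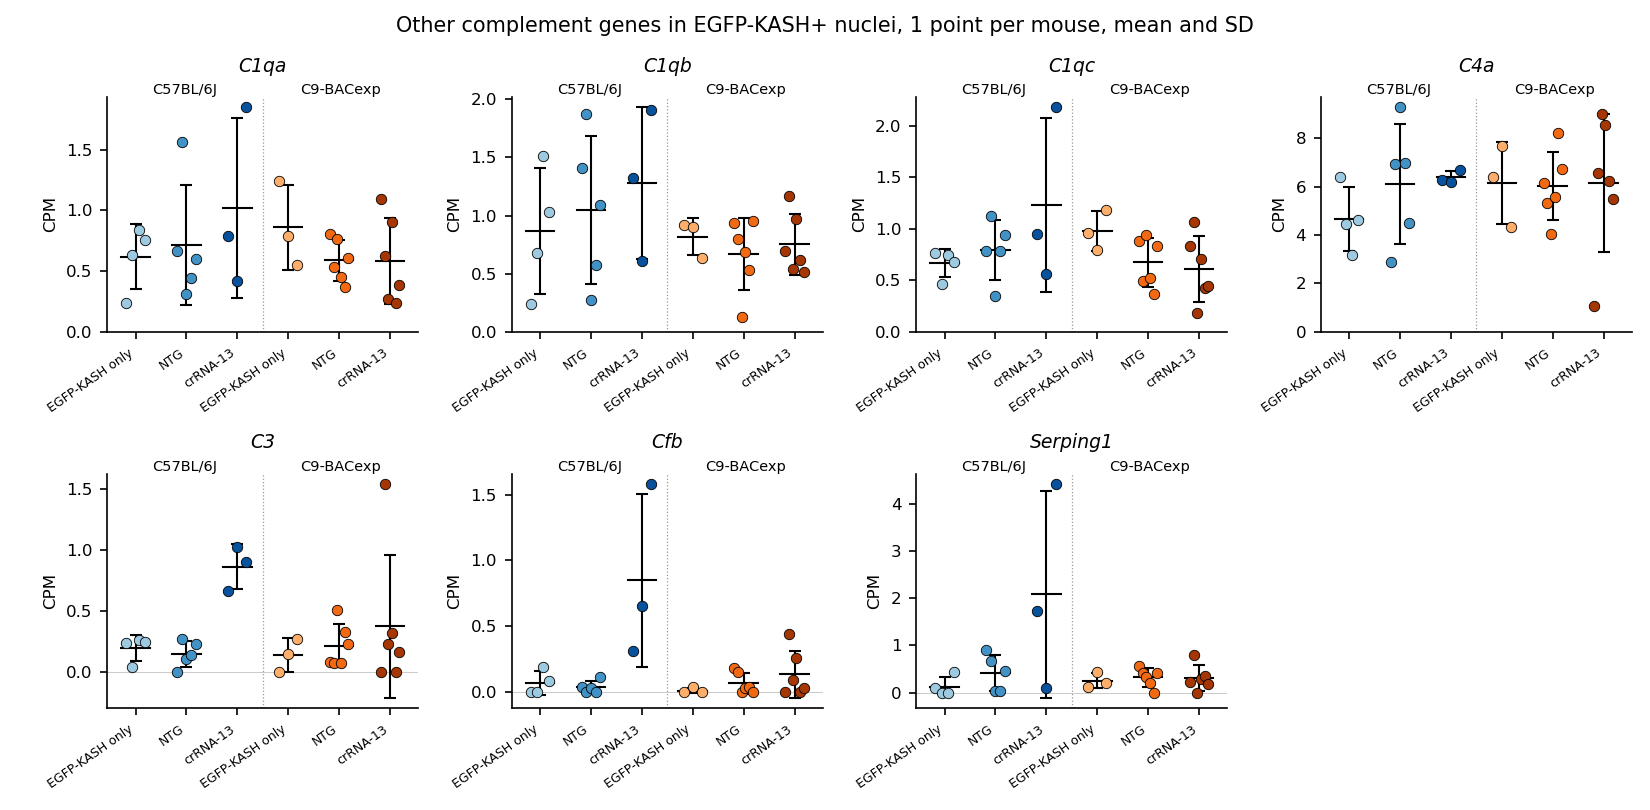
The other 7 genes in CPM on linear axes, 1 point per mouse with the mean and SD of each group. C3 and Cfb lie above the same-genotype controls in the 3 C57BL/6J mice with crRNA-13, Serping1 does so in 2 of the 3, and the group means of C4a lie between 4.66 and 6.38 CPM.

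In the fit, the 8 genes were all higher with crRNA-13 than with NTG in C57BL/6J mice, with a median log2 fold change of 1.27, where the median over all genes was 0.00, and all higher than with EGFP-KASH only, with a median of 1.49 (0.01 over all genes). Against NTG this rested on single mice for 4 of the 8. Without crRNA-13 replicate 5, C1qa was at -0.17 and C1qc at -0.05, without NTG replicate 3 C1qb was at -0.05, and without NTG replicate 1 C4a was at -0.10. The crRNA-13 mice did not overlap NTG for 2 of the 8 (C3 and Cfb) and did not overlap EGFP-KASH only for 3 (C4b, C3 and Cfb), where 1.51% and 2.58% of all genes were higher without overlap. C3 and Cfb entered the fit only because crRNA-13 mice were high, so neither these counts nor the medians bear on whether the genes moved as a group. In C9-BACexp mice 3 of 8 were higher than with NTG (median 0.00, against -0.02 over all genes) and 4 of 8 higher than with EGFP-KASH only (0.16, against 0.03). With crRNA-13 all 8 were lower in C9-BACexp than in C57BL/6J mice (median -0.94, against 0.00), a comparison that rests on the same 3 C57BL/6J mice. With NTG 4 of 8 were higher in C9-BACexp mice (median -0.11) and with EGFP-KASH only 6 of 8 (median 0.46). At an unadjusted p under 0.05 there were 3 of the 8 against each control in C57BL/6J mice with crRNA-13, 1 against each in C9-BACexp mice, 3 between the genotypes with crRNA-13 and 1 with EGFP-KASH only, 2 for the difference of effects, and none in the other 3 comparisons. Over all genes, the share at that p was 11.1% and 11.2% in the C57BL/6J comparisons of crRNA-13, 10.3% and 12.2% in those of C9-BACexp mice, 12.4% between the genotypes with crRNA-13 and 18.9% with EGFP-KASH only, and 10.4% for the difference of effects. A single gene of 8 (12.5%) lies near or below these shares. Each count of 3 and the count of 2 include Cfb, and the count against NTG in C57BL/6J mice includes C3. As these 2 genes were tested only because crRNA-13 mice were high, such counts cannot be set against the shares as an excess.

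**Figure D3:**
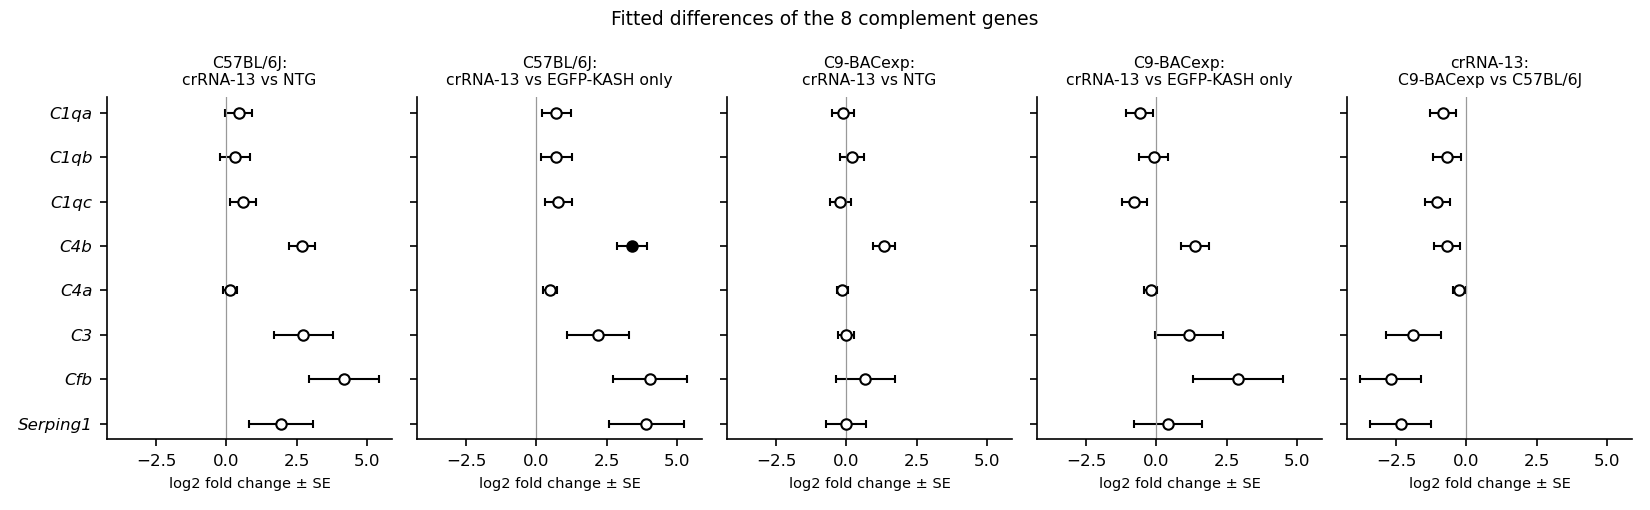
Fitted log2 fold changes with their SE for the 8 genes in 5 comparisons, filled where a gene was called. In both C57BL/6J comparisons of crRNA-13 all 8 points lie right of 0, in the comparison of the genotypes with crRNA-13 all 8 lie left of 0, and C4b over EGFP-KASH only in C57BL/6J, at 3.41, is the 1 filled point.

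Of the other genes of the complement system, a list of 44 was looked up, of which 35 were tested. With crRNA-13 in C57BL/6J mice none of the 35 was called, with 5 and 4 at an unadjusted p under 0.05 against NTG and EGFP-KASH only, and their median log2 fold changes were 0.17 and 0.18. These 14.3% and 11.4% of the list lay near the 11.1% and 11.2% of all genes at that p, and 0% and 0.404% of all genes were called. C2, which encodes the protease that joins C4b in the classical convertase, was at 1.44 ± 0.444 CPM (SD, n = 3) with crRNA-13, against 0.364 ± 0.250 with NTG (n = 5) and 0.109 ± 0.0486 with EGFP-KASH only (n = 4). Its values did not overlap those of either control, and the fitted differences, 2.01 (SE 0.88, adjusted p = 0.391) and 3.79 (SE 1.01, adjusted p = 0.122), did not pass. C1s1, a protease of C1, also lay above NTG without overlap (0.90, SE 0.35, adjusted p = 0.313). Over all genes, 1.51% lay above NTG and 2.58% above EGFP-KASH only without overlap in these mice. Itgam, a chain of complement receptor 3 on microglia and myeloid cells, had a log2 fold change of 1.61 against NTG (SE 0.46, adjusted p = 0.126). C2, C1s1 and Itgam were named after their values were seen.

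In C9-BACexp mice with crRNA-13 none of the 35 passed either, with 2 and 6 at an unadjusted p under 0.05, which is 5.71% and 17.1% of the list, where 10.3% and 12.2% of all genes had such a p. The only calls of the list were between the genotypes with NTG, where Csmd2, which encodes a membrane protein with complement control domains, was higher in C9-BACexp mice (0.38, SE 0.09, adjusted p = 0.02) and Vtn, which encodes vitronectin, was lower (-1.22, SE 0.33, adjusted p = 0.0485). That is 2 of 35, where 6.6% of all genes were called. Among the regulators, Clu was at 21.2 to 42.0 CPM, Cd46 at 50.01 to 103 CPM and Cd55 at 1.36 to 8.30 CPM, and none was called in any comparison. Cfd had no count in any of the 27 libraries. The receptor genes C3ar1 and C5ar1 stayed at or under 0.333 and 0.895 CPM.

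**Figure D4:**
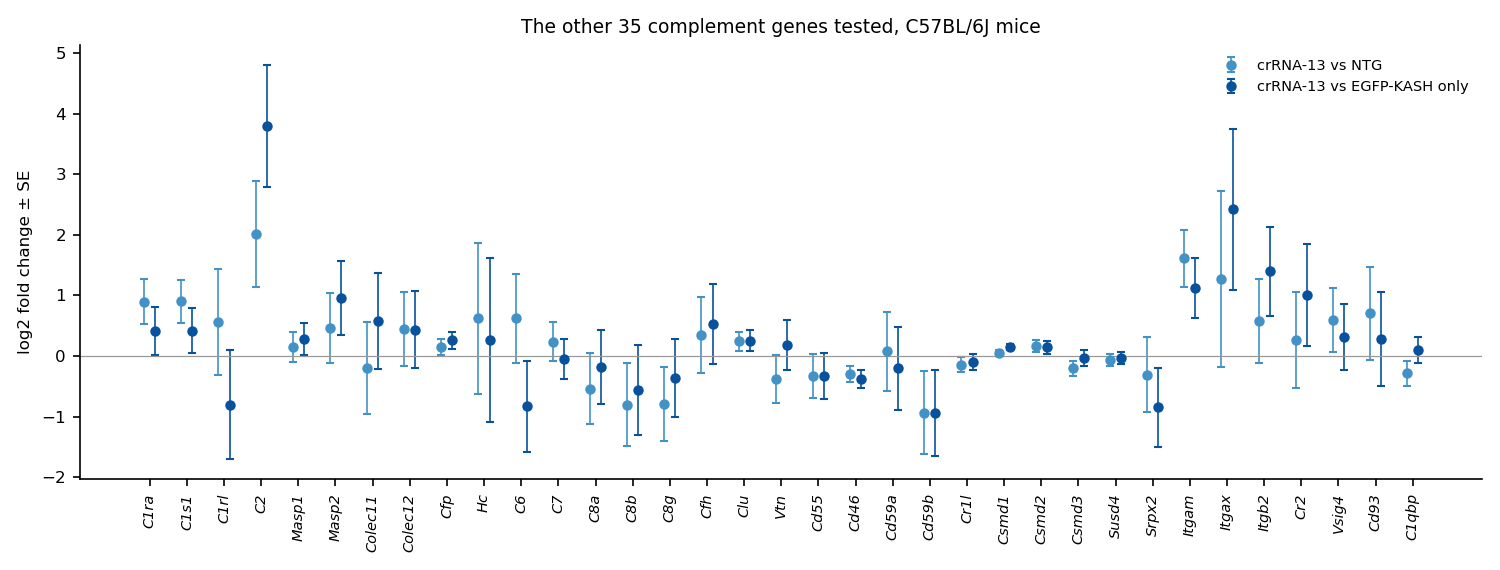
Log2 fold changes with their SE for the other 35 complement genes tested, in C57BL/6J mice, for crRNA-13 over NTG and over EGFP-KASH only. C2 stands highest, at 2.01 and 3.79, and no gene of the list was called.

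The genes whose pattern over the 27 libraries was most like that of C4b were ranked by the root mean square difference of log2 CPM, each centred on its own mean, over 13189 named genes that averaged 1 CPM or more. The nearest were H2-K1 (0.59), Il12rb1 (0.65), H2-Q4 (0.67), H2-D1 (0.68) and Irgm2 (0.74), where the median gene was at 1.43 and the SD of C4b itself was 1.43. H2-K1, H2-Q4 and H2-D1 encode heavy chains of class I histocompatibility molecules, Il12rb1 a chain of the receptors for 2 interleukins, and Irgm2 an immunity-related GTPase. H2-K1 ran from 0.706 to 39.1 CPM.

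A list of 35 interferon-stimulated genes, of which 33 were tested, was set beside C4b, with lists of reactive astrocyte, astrocyte and microglia markers. None of the 8 complement genes is in these lists. In the summed level of 34 interferon-stimulated genes, C57BL/6J mice with crRNA-13 were at 243, 538 and 1757 CPM, those with NTG at 143 to 408 CPM and those with EGFP-KASH only at 133 to 221 CPM. C9-BACexp mice were at 151 to 543 CPM with crRNA-13, 128 to 155 CPM with NTG and 139 to 153 CPM with EGFP-KASH only. In C57BL/6J mice 17 of 33 were called higher with crRNA-13 than with EGFP-KASH only, where 0.404% of all genes were called. Among them were Eif2ak2 (log2 fold change 3.29), Ifit3 (3.30), Oas2 (6.06) and Xaf1 (2.47). Against NTG 0 passed, where 0% of all genes were called. There 31 had an unadjusted p under 0.05 and all 33 were higher. In C9-BACexp mice 2 were called higher against NTG and 4 against EGFP-KASH only, where 0.478% and 0.923% of all genes were called. By fitted value 30 and 32 of the 33 were higher, 17 in each at an unadjusted p under 0.05. Between the genotypes with crRNA-13, 16 were called lower in C9-BACexp mice, where 1.09% of all genes were called. All 33 had a lower fitted value there. The 3 mice with the highest C4b, C9-BACexp crRNA-13 replicate 2 and C57BL/6J crRNA-13 replicates 1 and 5, were also the 3 highest in the interferon sum and in the sum of 12 reactive astrocyte genes such as Gfap and Serpina3n (60.8, 42.7 and 50.9 CPM, where all others were at 14.8 to 26.4). The mice at C4b ranks 4 to 7 ranked 11, 5, 7 and 17 in the interferon sum and 10, 4, 16 and 14 in the reactive astrocyte sum. Of the 12 reactive astrocyte genes 9 were tested. In the comparisons of crRNA-13 with its controls in either genotype none was called, and 7 of the 9 had a higher fitted value in each.

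The 3 mice with the highest C4b ranked 23, 17 and 2 of 27 in the sum of 12 astrocyte markers and 5, 15 and 3 in that of the microglia markers. Of 17 markers of infiltrating immune cells, which summed to 0.653 to 9.19 CPM over all libraries, 4 were tested and none was called with crRNA-13 against either control in either genotype. Without the mouse with the highest interferon sum among the crRNA-13 mice of each genotype, the C57BL/6J difference of C4b from EGFP-KASH only was 3.28 (adjusted p = 0.0338), and that from NTG in C9-BACexp mice was 0.95 (adjusted p = 0.313). The part of the interferon-stimulated and reactive astrocyte genes in the C4b level was not tested.

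**Figure D5:**
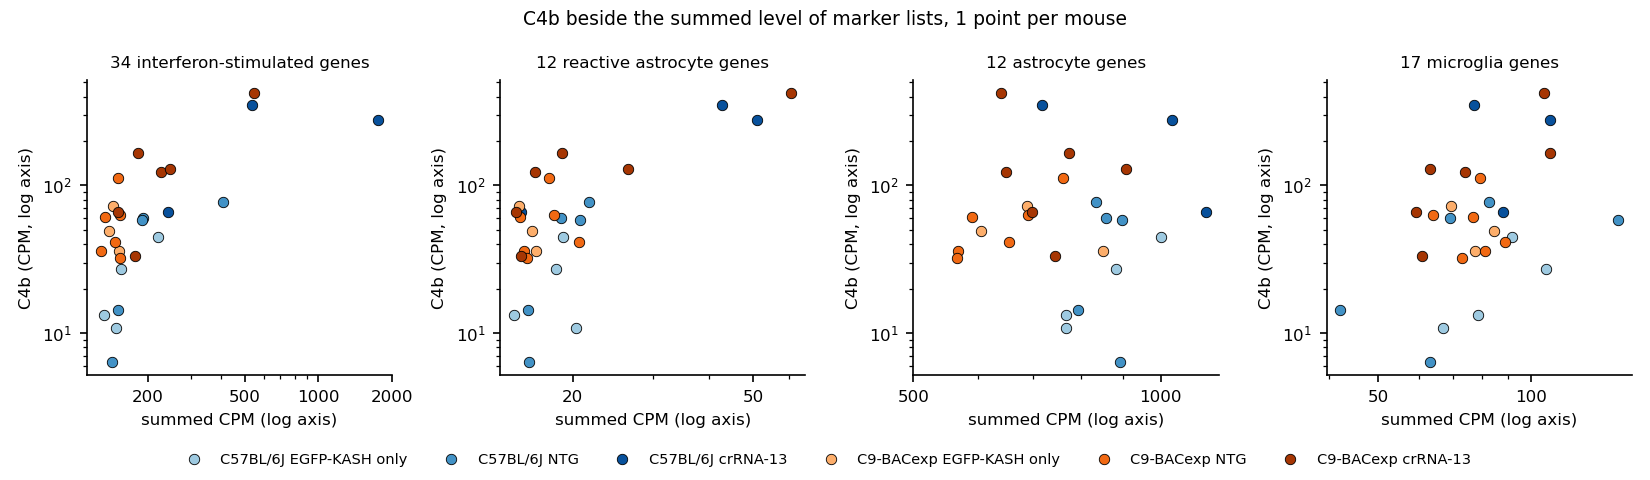
C4b in CPM against the summed CPM of 4 gene lists, both on log axes, 1 point per mouse coloured by group. The 3 mice with C4b from 278 to 420 CPM are also the 3 furthest right for the interferon-stimulated and the reactive astrocyte genes, and they are spread among the others for astrocyte and microglia markers.

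Among the 8 genes, the mouse that stood highest was often the same. C57BL/6J crRNA-13 replicate 5 had the highest C1qa, C1qb, C1qc, Cfb and Serping1 of all 27 libraries, the highest interferon sum and rank 3 in C4b, and it is also the C57BL/6J library with a trace of human C9ORF72. Without it, the C57BL/6J log2 fold change of C4b over EGFP-KASH only was 3.24 (adjusted p = 0.0371), that of Cfb against NTG was 3.63 and that of C3 against NTG was 2.78. Against NTG, C1qa and C1qc turned to -0.17 and -0.05 without it, and Serping1 went from 1.94 to 0.99. C9-BACexp crRNA-13 replicate 2 had the highest C4b and C3 of all libraries, and the highest EGFP-KASH level, 109.7 CPM.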

How the data were processed

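Libraries were from EGFP-KASH+ nuclei of 1 mouse each. As deposited, the values are expected counts per gene that the authors estimated with Salmon 1.10.0 on spliced and unspliced transcripts of GRCm39 and scaled by transcript length with tximport in R 4.3.1, without normalization between libraries. Whether the counting used strand is not given in the sources used here. Counts were rounded and scaled by TMM, and genes were filtered with filterByExpr (minimum count 10, minimum total 15) in edgeR 4.0.16 (R 4.3.3).

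The quasi-likelihood F test of edgeR was fitted to all 21768 genes with 6 groups and 4 factors of unwanted variation computed from residuals, a choice of method that is an assumption, since the study names the number of factors only. Benjamini-Hochberg adjustment was joint over 5 comparisons (the 3 genotype comparisons and crRNA-13 against both controls in C9-BACexp mice) and separate for the other 5. Standard errors were taken as the size of the fitted log2 change over the root of its F. Alternatives used limma 3.58.1 and DESeq2 1.42.0. The fits were also run on simulated counts with set fold changes and no unwanted variation, which cannot check the use of the 4 factors. Genes named were the 8 members, up to 4 called genes with the smallest p of each list in a comparison (values only where none was called), and the 5 genes nearest to C4b. Members, lists and tests were chosen with earlier results of these data known. The labels give neither sex nor batch. Permutation tests were exact and two-sided, on log2 of CPM plus 0.5. Floors and counts cover counting error only. Positions, overlaps and sequences are from GENCODE and the GRCm39 genome.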

Additional observations from a re-analysis of the deposited data

Results flagged for a closer look

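There were 32 sets of 1 gene in 1 group of 4 to 6 mice. In 4 of them a value stood apart from the rest of its group by Dixon's criterion. For normally distributed values chance alone does so in about 1 of 20 sets. The values here are CPM, in part 0 or near the floor, and sets of a group share mice, so that rate may not hold. C4b in C9-BACexp crRNA-13 replicate 2 was at 420 CPM (11460 counts), where the next mouse was at 167 CPM. C3 was at 1.54 CPM (42.2 counts) in the same mouse, where the next was at 0.322 CPM. C1qa in C57BL/6J NTG replicate 2 was at 1.57 CPM (46.0 counts), where the next mouse was at 0.667 CPM. C3 in C57BL/6J EGFP-KASH only replicate 3 was at 0.0423 CPM, which is about 1 count and below the floor, where the next mouse was at 0.239 CPM.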

How the results depend on the processing

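Most of the calls across all genes rest on the 4 factors: without them edgeR called 0 genes in C57BL/6J mice for crRNA-13 over EGFP-KASH only, where 88 were called with them, and 6 in place of 1437 between the genotypes with NTG. Of 8 complement genes, the count called in C57BL/6J mice for crRNA-13 over EGFP-KASH only was 0 in place of 1 in edgeR without factors (C4b log2 fold change 3.27, adjusted p = 0.234), with 2 factors (3.46, adjusted p = 0.151) and with the replicate number as a block (3.23, adjusted p = 0.0733), and it was 1 in DESeq2 without factors (3.28, adjusted p = 0.00704). In C57BL/6J mice, for crRNA-13 over NTG, it was 1 in place of 0, C4b, with DESeq2 and factors (2.71, adjusted p = 6.49e-05), with p adjusted over all comparisons together (2.69, adjusted p = 0.00699), at a fold over 1.2 and an adjusted p under 0.05, and with the Xist level as a covariate for sex (2.99, adjusted p = 0.008). For crRNA-13 against NTG in C9-BACexp mice it was 1, C4b, with DESeq2 and factors (1.36, adjusted p = 0.0182) and with the Xist covariate (1.41, adjusted p = 0.0335). Between the genotypes with crRNA-13 it was 1, Cfb, with limma-trend (-2.02, adjusted p = 0.0379). Leaving out 1 library at a time gave counts of 0 to 1 for crRNA-13 against NTG in both genotypes and no other change of a count. In C9-BACexp mice, C4b with NTG over EGFP-KASH only had a log2 fold change of -0.14 with the Xist covariate in place of 0.04, and -0.18 to 0.34 with 1 library left out. The cause of these changes was not tested.

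The same replicate numbers recur between groups, and the labels do not say whether they pair the mice. In 48 pairs of libraries with the same number the correlation of deviations lay between -0.16 and 0.29 and was over 0.1 in 10. Its median was -0.0031 in these pairs and 0.00014 in the other pairs between groups. Such medians cannot show whether some mice with the same number were handled together. Beyond the 1 call above, the block changed no call among these genes. The exact permutation tests and the fit without 2 crRNA-13 libraries were added after the data were seen. Of 209 values of C4b or of genes with an unadjusted p under 0.05 under alternatives other than leaving out a library, 198 kept direction and side of the limits and 1 reversed, and 4 of 176 reversed with 1 library left out. Of the other results of these genes, 25 of 703 and 52 of 628 reversed. Without C9-BACexp crRNA-13 replicate 2, Cfb did not pass the filter and has no value. Depth limits C3, Cfb and Serping1, which were under 3 counts in 8, 19 and 9 of 27 libraries.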
